A study of Mus musculus with 4 samples.

Results

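The 10 genes described here were grouped as feedback phosphatases and mRNA decay regulators. The group holds the phosphatases Dusp1 and Dusp2 and the mRNA decay factors Zfp36, Zfp36l1, Zfp36l2 and Zc3h12a. It also holds the TNF-induced genes Tnfaip3 and Tnfaip2, and the genes of the deadenylase-binding proteins Btg1 and Btg2. The genes were chosen by symbol, with earlier results of these data known, and all 10 were found among the 18894 genes of the series. Their mRNA was measured by Drop-seq, in which single cells are captured in droplets with barcoded beads, in neutrophils of tumor and blood. Both tissues came from the same 3 untreated FVB mice, which had been injected with Py7160 cells, a mouse mammary tumor line, and whose tumors had reached about 1 cm after 2 to 3 weeks. No genotype beyond the FVB strain and no age is given. Tumors were digested with enzymes and blood was treated with a red-cell lysis buffer, cells were enriched by Ly6G and sorted as CD11b+ Ly6G+, and the 3 mice of a tissue were marked by hashtag antibodies and pooled into 1 library. Tissue, library and the way the cells were released therefore cannot be told apart in any comparison below.

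As background, the dual-specificity phosphatases encoded by Dusp1 and Dusp2 remove phosphate from activated MAP kinases, the p38, JNK and ERK enzymes that carry inflammatory signals to the nucleus. Zfp36 (tristetraprolin) and its relatives bind AU-rich elements in the 3′ UTRs of cytokine and chemokine mRNAs and recruit the deadenylase complex that shortens the poly(A) tail, whereas Zc3h12a (Regnase-1) cuts mRNAs at stem-loops. Btg1 and Btg2 bind the deadenylase subunit Cnot7 and its relatives, Tnfaip3 (A20) edits ubiquitin chains and limits NF-kB signalling, and Tnfaip2 is a TNF-induced protein known for membrane protrusions. Activated neutrophils make large amounts of short-lived chemokine and cytokine mRNAs, the substrates of this decay machinery.

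Several of these members carry in their own mRNA the letters of an element that Zfp36 proteins bind. The nonamer TTATTTATT, written as DNA, was searched on the sense strand of the 3′ UTR of the principal GENCODE M21 transcript of 9 members and was found in 4 of 9, against 7.95% of the 3457 tested genes with a 3′ UTR and 7.13% of all 20715 protein-coding genes with one. The shorter pentamer ATTTA, which the nonamer contains, was present in 9 of 9, in 3′ UTRs of 581 to 4166 bases. Its share over other genes was not counted, so this is not read as a trait of the members. Each site is shown with 10 bases on either side, 5′ to 3′ and with the nonamer in capitals. All 5 sites lie in 3′ UTRs of genes on the minus strand (GRCm38, the assembly also called mm10), at chr17:26506159-26506187 and chr17:26505870-26505898 for Dusp1, chr7:28376951-28376979 for Zfp36, chr12:80108167-80108195 for Zfp36l1 and chr17:84184914-84184942 for Zfp36l2.
Dusp1 site 1: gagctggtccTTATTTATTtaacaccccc
Dusp1 site 2: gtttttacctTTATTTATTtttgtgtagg
Zfp36 site: tatgacgactTTATTTATTgtattaagat
Zfp36l1 site: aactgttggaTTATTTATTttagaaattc
Zfp36l2 site: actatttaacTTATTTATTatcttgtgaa
Of the members shown, Dusp1 and Zfp36 rose in tumor neutrophils and Zfp36l1 and Zfp36l2 did not pass the test. Of those searched, Dusp2, Zc3h12a, Tnfaip2, Btg1 and Btg2 do not have these letters in this transcript, and all 5 rose. A match is a stretch of letters and not a shown binding site.

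Promoters from RefSeq (GRCm38.p6, 250 bases before to 50 after each start site) were matched for 9 of 10 members, all except Zfp36l2. Of 8 motifs searched on both strands, 3 are shown because they belong to factors that stress and inflammatory signals activate. The cAMP response element TGACGTCA was found for 2 of 9 members, Dusp1 and Btg2, and in 1.79% of 32851 promoters. The AP-1 motif TGANTCA was found for 2 of 9 members, Tnfaip3 and Zfp36l1, and in 7.81% of promoters, and the NF-kB motif GGGNNNTTCC for 1 of 9, Tnfaip3, and in 5.56%. The other 5 motifs were the short core TGACG, which TGACGTCA contains, in 6 of 9 members and 20.8% of promoters, the GC box GGGCGG in 8 of 9 and 35.7%, the TATA box TATAAA in 3 of 9 and 13.6%, the CArG box in 1 of 9 and 1.63%, and the C/EBP motif TTGCNNAA in 0 of 9 and 10.8%. The stretches around the chosen matches, picked after the matches were found, are written 5′ to 3′ on the minus strand, on which all 3 genes lie. Capitals mark TGACGTCA for Dusp1 and Btg2, and for Tnfaip3 the AP-1 motif and the NF-kB motif, the latter in its reverse complement.
Dusp1 chr17:26508552-26508671: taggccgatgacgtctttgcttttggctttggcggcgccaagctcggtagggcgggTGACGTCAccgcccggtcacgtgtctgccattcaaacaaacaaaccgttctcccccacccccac
Btg2 chr1:134079258-134079377: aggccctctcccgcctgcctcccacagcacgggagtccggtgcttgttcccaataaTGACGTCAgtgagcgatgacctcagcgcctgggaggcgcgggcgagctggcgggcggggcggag
Tnfaip3 chr10:19015411-19015560: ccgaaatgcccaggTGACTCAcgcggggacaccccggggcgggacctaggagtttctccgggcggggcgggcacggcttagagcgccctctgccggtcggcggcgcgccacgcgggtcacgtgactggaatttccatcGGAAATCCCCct
Relative to the start site, the capitals begin at position -143 in Dusp1, -166 in Btg2, and -136 and -12 in Tnfaip3. Binding of these factors was not measured in this study.

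Barcodes with at least 200 detected genes and at most 15% mitochondrial UMIs (unique molecular identifiers, each standing for 1 captured RNA molecule) were kept, and each was given to the mouse whose hashtag supplied at least 70% of its hashtag counts. This left 841 tumor cells (106, 564 and 171 for mice 1, 2 and 3) with 572844 UMIs and 1375 blood cells (511, 456 and 408) with 1147068 UMIs. The median cell of a tumor mouse held 570 to 586 UMIs, and that of a blood mouse 647.5 to 671. Tumor hashtag 2 was also high in barcodes at large, with a median of 194 counts against 17 and 26 for the other hashtags, and a second assignment method, HTODemux, placed 498 of the 841 tumor cells and 1238 of the 1375 blood cells with the same mouse. The libraries shared 20 barcodes, of which 0 were among the assigned cells. All 12 neutrophil markers checked were detected in both tissues, summing to 73873 to 87464 CPM (UMIs scaled to a common library total) in tumor and 180677 to 207997 in blood, and erythroid markers stood at 0 in tumor and at 13960 to 22155 CPM in blood. MHC class II markers summed to 156, 2854 and 2636 CPM in tumor mice 1, 2 and 3 and to at most 133 in blood, so the tumor mice differed in this sum.

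In tumor neutrophils 8 of the 10 members rose and 0 fell (edgeR quasi-likelihood test on the 6 sums per mouse and tissue, Benjamini-Hochberg adjusted p under 0.05), where 30.2% of the 3674 tested genes rose and 29.8% fell. No member had a log2 fold change below 0, and DESeq2 also called 0 lower. Tnfaip3 and Dusp2 had 7 and 3 UMIs in blood and passed the low-count filter only through their tumor counts, which fixed their direction, and 6 of the 8 members that reached it in both tissues rose. Zc3h12a, Zfp36 and Dusp1 rose by 1.91, 1.47 and 1.14 on the log2 scale, Btg2, Tnfaip2 and Btg1 by less than 1, and Zfp36l1 and Zfp36l2 did not pass the test. The median log2 fold change was 0.99 over the 10 members, 0.81 over those 8 and -0.04 over all tested genes. For 7 of 10 members every tumor value exceeded every blood value, and 63.0% of tested genes had tissues without overlap in either direction. The levels are relative to all UMIs of a sum, so fewer cells with a transcript and less of it per cell cannot be told apart, and levels are compared within a gene, not between genes.

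**Figure D1:**
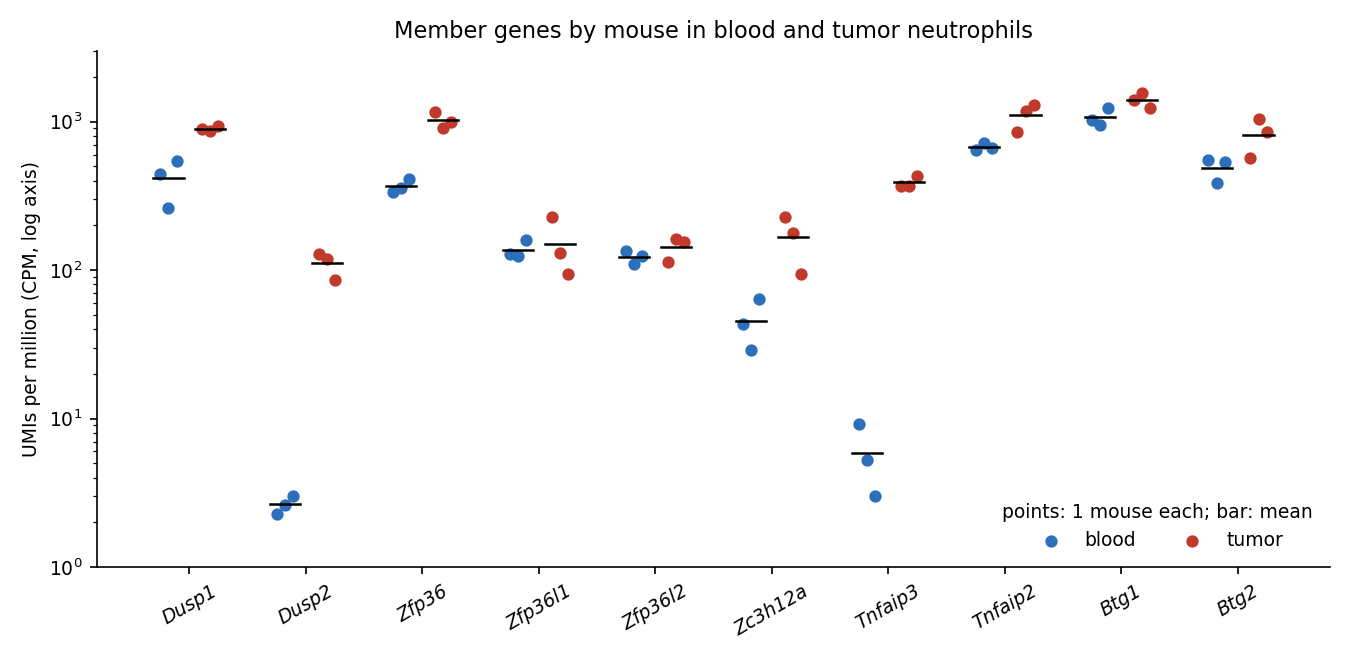
Level (CPM, log axis) of each member in blood (blue) and tumor (red) neutrophils, with 1 point per mouse and a bar at the mean of 3 mice. Tumor points lie above all blood points for 7 genes, by the widest margin for Tnfaip3 and Dusp2, and overlap them for Zfp36l1, Zfp36l2 and Btg1.

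Of the phosphatases, Dusp1, whose product acts mainly on p38 and JNK, stood at 892, 867 and 933 CPM in tumor mice 1 to 3 and at 444, 263 and 542 CPM in blood mice 1 to 3. The tumor mice were close to each other and all above the blood mice, among which mouse 2 was low. Its log2 fold change was 1.14 (SE 0.19, edgeR adjusted p = 8.20e-05), with means of 897 ± 33.3 and 416 ± 141 CPM (SD, n = 3 mice each). Dusp2, a nuclear phosphatase of immune cells, stood at 127, 119 and 85.6 CPM in the tumor mice and at 2.29, 2.63 and 3.03 CPM in the blood mice. Each blood value is a single UMI, so the contrast rests on 65 UMIs in tumor and 3 in blood. The ratio of the summed CPM was 43.4 (exact 95% interval 14.2 to 216, counting error only), and edgeR gave an adjusted p of 5.93e-08.

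Dusp1 depended on which cells were read. In assigned cells with at least 500 detected genes, 80 in tumor and 231 in blood, Dusp1 stood at 446, 365 and 351 CPM in the tumor mice and 413, 252 and 540 CPM in the blood mice. The tumor values rest on only 5, 34 and 7 UMIs from 9, 60 and 11 cells, and the blood values on 69, 32 and 60 UMIs. The mice of both tissues overlapped there, and the log2 value was -0.19 (edgeR adjusted p = 0.676). These tumor cells also held more RNA of other programs: MHC class II markers summed to 8909 CPM, monocyte or macrophage markers to 6873 and immature neutrophil markers to 19717, against 2477, 2310 and 5485 CPM in all assigned tumor cells. Blood cells with at least 500 genes were also higher in immature neutrophil markers, at 22729 against 10098 CPM in all assigned blood cells, and held MHC class II markers at 104 and macrophage markers at 1121 CPM, against 80.2 and 710. The part of these markers in the Dusp1 value was not tested. Without the 150 tumor and 187 blood cells that held at least 2 UMIs of another cell type's marker list, the log2 fold change of Dusp1 was 1.25 (edgeR adjusted p = 1.35e-06).

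Of the Zfp36 family, Zfp36 passed the test. It stood at 1161, 911 and 993 CPM in the tumor mice and at 337, 355 and 412 CPM in the blood mice. The groups were far apart relative to their spread, with means of 1022 ± 128 and 368 ± 39.1 CPM (SD, n = 3). The log2 fold change was 1.47 (SE 0.14, edgeR adjusted p = 8.39e-08), and it was 1.16 (adjusted p = 0.00915) in cells with at least 500 genes, the only member called there among the 7 that could be tested.

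Zfp36l1, an AU-rich element binding protein with roles in lymphocyte and vessel development, stood at 227, 130 and 94.1 CPM in tumor and 128, 124 and 160 CPM in blood. The tumor values straddled those of blood, and the log2 fold change of 0.04 (SE 0.25, edgeR adjusted p = 0.901) had no stable sign. Zfp36l2, its closest relative, stood at 113, 161 and 154 CPM in tumor and at 135, 111 and 124 CPM in blood, again with overlap. Its log2 fold change was 0.33 (SE 0.22, edgeR adjusted p = 0.198), and it passed the threshold in 1 alternative, without the cells that held markers of other types (0.61, adjusted p = 0.0314).

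The share of each paralog within its family was compared too. Zfp36 supplied 77.4, 75.8 and 80% of the family's UMIs in tumor mice 1 to 3 and 56.1, 60.3 and 59.1% in blood mice 1 to 3. Every tumor mouse lay above every blood mouse, a mean of 77.7% ± 2.12 against 58.5% ± 2.15 (SD, n = 3), from 714 and 716 family UMIs. An exact two-sided permutation test gave p = 0.1, the smallest that 3 against 3 mice allow (0.156 after Benjamini-Hochberg adjustment over 14 shares). Dusp2 supplied 11% ± 2.26 of the UMIs of Dusp1 and Dusp2 in tumor and 0.686% ± 0.264 in blood, also without overlap (exact permutation p = 0.1, adjusted 0.156). The share of Btg2 in the UMIs of Btg1 and Btg2 was 36.5% ± 6.52 in tumor and 31.3% ± 3.04 in blood, with overlapping mice (exact permutation p = 0.3, adjusted 0.35). That difference of 5.18 percentage points was 8.93 without tumor mouse 1 and 3.05 without tumor mouse 3. These shares are ratios within a library and need no scaling between libraries.

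**Figure D2:**
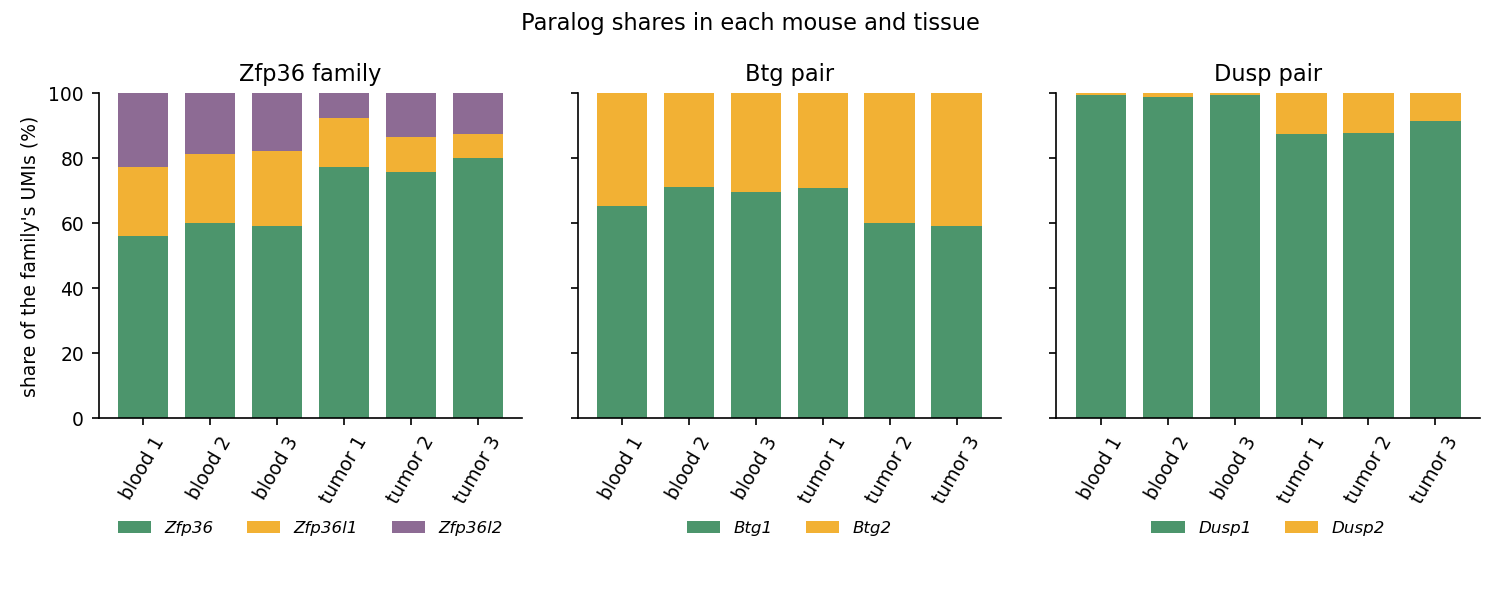
Share of each paralog in the summed UMIs of its family (percent, stacked to 100) for each blood and tumor mouse. The Zfp36 segment is larger in all 3 tumor mice (75.8 to 80%) than in all 3 blood mice (56.1 to 60.3%), Dusp2 is a thin segment in blood and 8.40 to 12.5% in tumor, and the Btg segments overlap between tissues.

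Zc3h12a, the stem-loop endonuclease, stood at 227, 176 and 94.1 CPM in the tumor mice and at 43.5, 28.9 and 63.6 CPM in the blood mice. Tumor mouse 1 was high and mouse 3 low, and all 3 lay above blood. The log2 fold change was 1.91 (SE 0.32, edgeR adjusted p = 6.24e-05), from 95 UMIs in tumor and 51 in blood.

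Tnfaip3, the ubiquitin-editing inhibitor A20, stood at 368, 371 and 428 CPM in tumor and at 9.16, 5.26 and 3.03 CPM in blood. The tumor mice were close together, and the blood values came from 4, 2 and 1 UMIs. The log2 fold change was 5.92 (SE 0.31, edgeR adjusted p = 3.92e-11), and the summed CPM differed 62.6-fold (exact 95% interval 29.9 to 158, counting error only). Over 18 alternatives that could test it, the log2 value lay between 5.51 and 6.29. In tumor the summed cells held 382 CPM, no more than the 433 CPM of near-empty barcodes with 20 to 60 UMIs, so the difference between tissues is not shown to lie in the cells themselves.

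Tnfaip2 stood at 850, 1186 and 1292 CPM in tumor and at 641, 713 and 669 CPM in blood, without overlap. Tumor mouse 1 was nearest to blood, and it was also the mouse with the lowest MHC class II and macrophage marker sums. Whether those markers bear on the value was not tested beyond leaving out the cells that held them, which gave a log2 fold change of 0.89 against 0.78 in all assigned cells (SE 0.15, edgeR adjusted p = 3.15e-04).

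Btg2, an antiproliferative deadenylase-binding protein, stood at 566, 1035 and 847 CPM in the tumor mice and at 547, 387 and 536 CPM in the blood mice. Tumor mouse 1 lay just above the highest blood mouse. The log2 fold change was 0.85 (SE 0.19, edgeR adjusted p = 0.00107). Its relative Btg1 stood at 1388, 1570 and 1232 CPM in tumor and 1028, 950 and 1235 CPM in blood, so tumor mouse 3 and blood mouse 3 overlapped. Its log2 fold change of 0.43 (SE 0.14, edgeR adjusted p = 0.0146) was the smallest of those called. It was not called by DESeq2 (0.37, adjusted p = 0.105), nor by edgeR without tumor mouse 2 (0.31, adjusted p = 0.0931), without blood mouse 1 (0.29, 0.171) or without blood mouse 2 (0.23, 0.216).

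**Figure D3:**
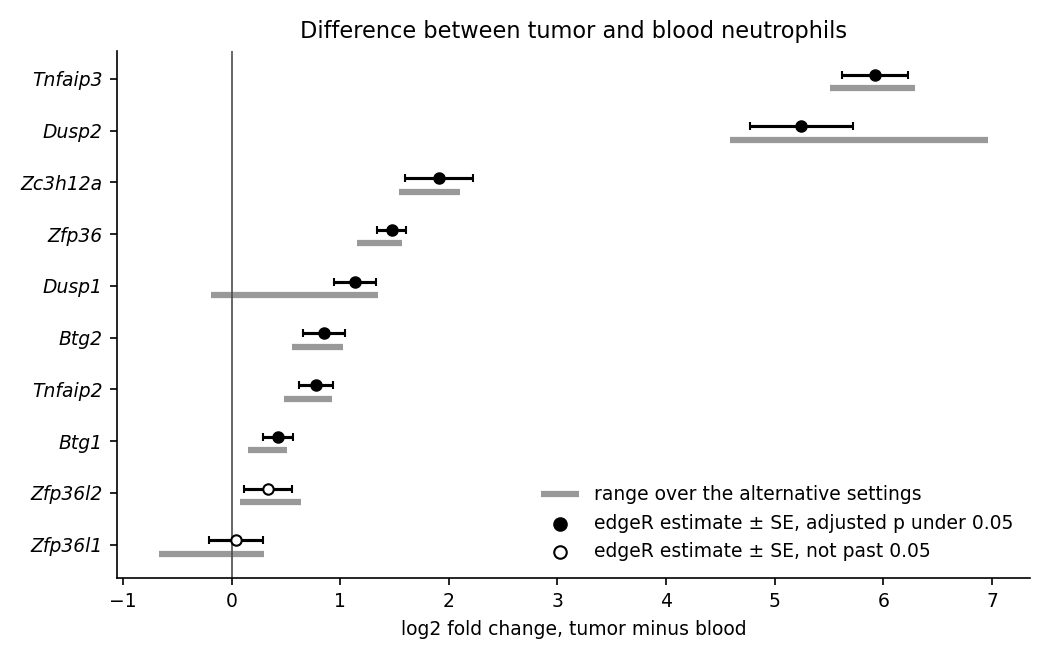
Log2 fold change of each member between tumor and blood neutrophils, with the edgeR estimate and its SE (filled where adjusted p is under 0.05) and a grey bar for the range over the alternative settings. Tnfaip3 and Dusp2 lie near 5.92 and 5.24, the bar of Dusp1 reaches -0.19, and that of Zfp36l1 lies on both sides of 0.

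The members were also read cell by cell, with each cell thinned to 441 UMIs so that depth was equal, which left out 209 tumor and 254 blood cells. A UMI of Dusp1 was then held by 30.6% ± 2.71 of tumor cells and 16.4% ± 5.83 of blood cells, and one of Zfp36 by 30.2% ± 2.52 and 16.0% ± 0.968 (SD, n = 3 mice each). Both differed without overlap of the mice (exact permutation p = 0.1, adjusted 0.156). Without thinning the shares were 36.4% and 24.8% for Dusp1 and 38.3% and 25.1% for Zfp36. Btg1 was held by 42% ± 4.19 and 38.1% ± 2.90 of thinned cells, with overlap of the mice (exact permutation p = 0.2, adjusted 0.255). At least 1 member was held by 89.0% ± 2.59 of tumor cells and 75% ± 4.27 of blood cells, and in 1 random draw tumor cells held UMIs of 1.98 ± 0.119 different members and blood cells of 1.29 ± 0.109.

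These shares have to be read against RNA outside cells. Neither library held a cell type that should lack these genes, so barcodes with 20 to 60 UMIs were taken as the measure of such RNA. A cell made up only of that RNA would hold a Zfp36 UMI in 14.9% of cases in tumor and 4.54% in blood, and a Dusp1 UMI in 19.8% and 8.38%, in each case below the share seen. For Tnfaip3 in tumor the expected share was 17.4% and the share seen 13.9% ± 1.45, so a Tnfaip3 UMI does not mark a tumor cell as expressing it. The source of these UMIs was not tested. The expected share also reached or passed the mean share seen for Zfp36l1, Zfp36l2, Tnfaip2 and Btg2 in tumor. All members together stood at 4239 CPM in those barcodes in tumor and 1903 in blood, against 6375 and 3315 CPM in assigned cells. The share of cells with at least 1 member is therefore not a share of cells expressing one. The level of Tnfaip3 in those barcodes was 433 CPM (95% Poisson interval 358 to 519) in tumor and 12.1 CPM (2.51 to 35.5) in blood, so the tissues differed in the near-empty barcodes as they did in cells, at 382 and 6.10 CPM. Near-empty barcodes were higher in tumor than in blood for the other called members too. They held Zfp36 at 366 and 105 CPM, Dusp1 at 500 and 198, Zc3h12a at 116 and 40.5, and Dusp2 at 70.9 and 0. Tnfaip2 stood there at 940 and 421 CPM, Btg2 at 701 and 364, and Btg1 at 761 and 559. The tissue difference of the called members was therefore not confined to cells. Zfp36 was 2.62 times as high in tumor cells as in those barcodes and 3.46 times in blood, Btg1 1.94 and 1.90 times, and Dusp1 1.77 and 2.08 times.

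**Figure D4:**
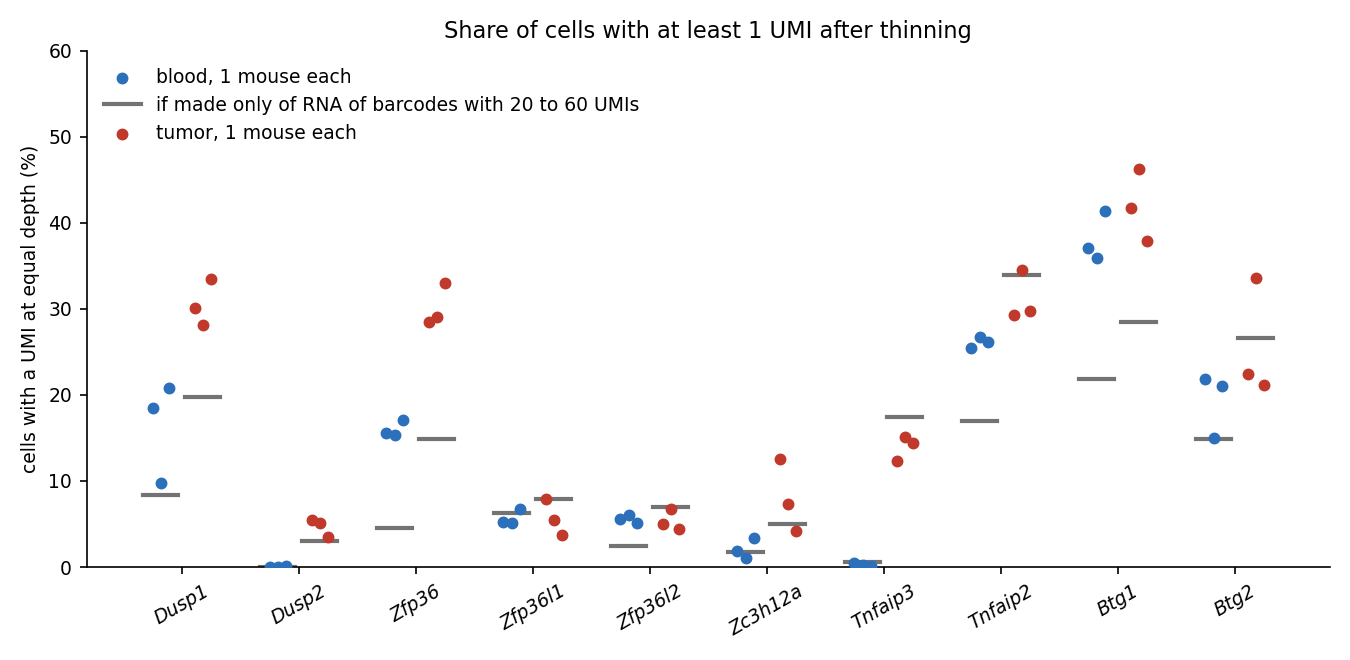
Share of cells with at least 1 UMI of each member at 441 UMIs per cell (percent), with 1 point per mouse in blood (blue) and tumor (red) and a grey line at the share that RNA of barcodes with 20 to 60 UMIs alone would give. Points of Zfp36, Dusp1 and Btg1 lie above their lines in both tissues, whereas all 3 tumor points of Tnfaip3 lie under a line at 17.4%.

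**Figure D5:**
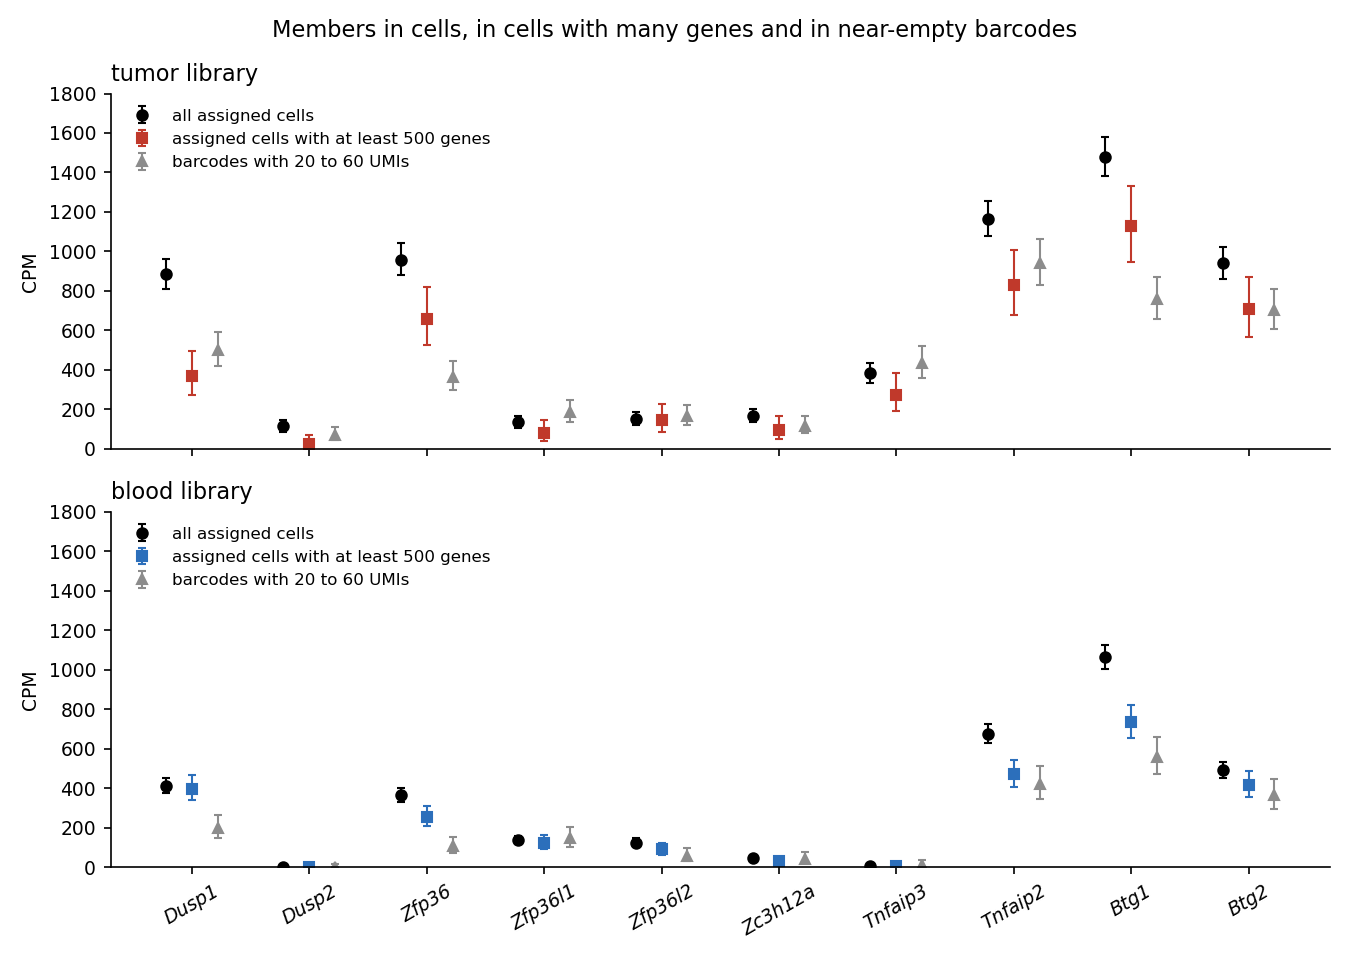
Level of each member (CPM, linear axis) in all assigned cells, in assigned cells with at least 500 genes and in barcodes with 20 to 60 UMIs, for tumor (top) and blood (bottom), with bars for 95% Poisson intervals that cover counting error only. In tumor, cells with many genes hold less Dusp1 (370 against 883 CPM in all cells) and less Zfp36 (660 against 958 CPM), and Zfp36 there lies above its 366 CPM in near-empty barcodes.

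Joint presence of members in single cells was also counted. Over the 45 pairs of members in 632 thinned tumor cells the correlation of presence ran from -0.11 to 0.12 with a median of 0.01. The highest pair was Dusp1 and Tnfaip2, with 78 cells holding both where independent draws would give 61.4. In 1121 blood cells the 28 pairs that could be computed ran from -0.03 to 0.06. Cells of a library share mice and sparse counts, so these values are descriptions.

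Of 132 genes on 6 lists of partners, relatives and substrates of the members, 73 could be tested, and 38 rose and 12 fell in tumor (edgeR, adjusted p under 0.05), where 30.2% of all tested genes rose and 29.8% fell. Of the 38, 18 were decay-element mRNAs, and the other 5 lists together had 20 higher and 12 lower of 53, with a median log2 fold change of 0.09. The counts of these 5 lists hold few genes each and are read against those shares as descriptions, with nothing particular to a list drawn from them. Some of their genes passed the low-count filter through a single tissue, which constrains their direction. The genes that reached it in both tissues are therefore also given for each list. These lists, like the members, were chosen with earlier results of these data known. Among other dual-specificity phosphatases 2 of 5 tested genes rose and 2 fell, the median being 0.17. Of the 4 that reached the filter in both tissues 1 rose and 2 fell, with a median of -0.63. Dusp5, a nuclear ERK phosphatase, went from 27.2 ± 10.6 CPM in blood to 718 ± 46.1 in tumor (SD, n = 3), a log2 fold change of 4.72, and Dusp16, a JNK phosphatase, rose by 1.82. Dusp5 passed the low-count filter only through tumor, which constrains its direction. Dusp6, the cytoplasmic ERK phosphatase, fell by 1.43 and Ssh2, a cofilin phosphatase of the same fold, fell by 2.68.

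Of the MAP kinases and their activators, the enzymes that Dusp1 and Dusp2 oppose, 5 of 13 rose and 4 fell, with a median of -0.09. Of the 6 that reached the filter in both tissues 2 rose and 1 fell, with a median of -0.06. Mapk6, an atypical MAP kinase, rose by 5.18, Mapkapk2, the p38-activated kinase that phosphorylates Zfp36, by 3.45, and Map3k8 by 2.03 on the log2 scale. Mapk14, which encodes p38 alpha, fell by 3.37 (12.3 ± 19.1 CPM in tumor and 99.3 ± 11 in blood, SD, n = 3), from 5 UMIs in tumor. Map3k5 fell by 1.68 and Mapk13 fell by 1.59. Mapk6 and Mapkapk2 passed the low-count filter only through tumor. Mapk14, Map3k5 and Mapk13 passed it only through blood, and either route constrains the direction. Map3k8 reached it in both tissues.

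Among deadenylation and decapping genes 5 of 12 rose and 1 fell, with a median of 0.40. Of the 6 that reached the filter in both tissues 1 rose and 1 fell, with a median of 0.07. Patl1, a decapping scaffold, rose by 2.89, Cnot7, the deadenylase that Btg proteins bind, by 1.92 (86.7 ± 16.5 against 24.6 ± 6.995 CPM), and Tob2, a further member of the Btg family, by 1.85. Patl1, Cnot7 and Tob2 all passed the low-count filter only through tumor, which constrains their direction. The RNA helicase gene Ddx6 fell by 0.54. Of 8 tested genes for other AU-rich and stem-loop binding proteins 2 rose, Ybx1 by 0.80 and Hnrnpd by 0.64, and Arid5a, which protects stem-loop mRNAs from Zc3h12a, fell by 0.96.

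Among 15 tested partners of A20 and genes of TNF receptor signalling 6 rose and 4 fell, with a median of -0.20. Of the 8 that reached the filter in both tissues 3 rose and 2 fell, with a median of -0.06. Traf1, an NF-kB-induced adaptor, had 50 UMIs in tumor and 1 in blood, a ratio of 100 (exact 95% interval 17.2 to 4033, counting error only). Tnfrsf1b, the second TNF receptor, rose by 3.06 and Tnip1, an adaptor that binds A20, by 1.73. Tnfaip8l2 fell by 4.33, Tnfaip8 fell by 1.80, and Cyld, another deubiquitinase that limits NF-kB, fell by 0.96. Traf1 passed the low-count filter only through tumor, and Tnfaip8l2 and Cyld only through blood, which constrains their direction. Tnip1 did not reach it in both tissues.

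The mRNAs known to carry AU-rich or stem-loop decay elements, the substrates of Zfp36 and Zc3h12a, had 18 of 20 tested genes higher and a median log2 fold change of 5.35 (5.12 with the 5 genes at 0 in blood set to their bound). Of the 20, 13 passed the low-count filter only through tumor, which set their direction. Of the 7 that reached it in both tissues 5 rose, with a median of 0.85. The genes that did not pass the test, Fos and Bcl3, stood at log2 fold changes of 0.47 and 0.43. The chemokine mRNA Cxcl2 was at 34513 ± 6886 CPM in tumor neutrophils and at 19 ± 3.62 CPM in blood neutrophils (SD, n = 3). Ccl3 had 3 UMIs in blood, a ratio of 2722 (931 to 13204), and Cxcl1 had 0 in blood and was at least 188.89-fold higher in tumor, taking 3 counts over the summed blood mice as the floor. Decay rates were not measured.

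Early response and heat shock genes, which tissue digestion is known to induce, were also mostly higher in tumor. Of 16 that could be tested 14 rose and 1 fell with a median of 2.06, of the 10 that reached the filter in both tissues 8 rose and 1 fell with a median of 0.97, and the list summed to 10294 to 12497 CPM in the tumor mice and 3273 to 4254 in the blood mice. Egr1 rose by 7.35, Fosb by 6.02 and Atf3 by 5.41 on the log2 scale, whereas Ier2 fell by 0.86. Egr1, Fosb and Atf3 had 5, 4 and 48 UMIs in blood and passed the filter only through tumor, which constrains their direction. Since only tumors were digested, release from tissue and residence in it cannot be told apart for the members.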

How the data were processed

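Neutrophils of tumor and blood (3 mice, 1 RNA and 1 hashtag library per tissue) were analysed from the UMI counts and hashtag counts that the authors deposited per barcode, raw whole numbers per the files' values. Per the submitters' processing notes STAR and mm10 were used; which counter, annotation and strand setting is not given in the sources used here. Genes absent from a tissue's file were set to 0 there. Barcodes were selected and assigned to mice as described above, which also drops doublets between mice; 103 tumor and 154 blood barcodes had no hashtag at 70%, and no other doublet caller was run.

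UMIs were summed into 6 sums, of 70612 to 436713 UMIs, so precision is lowest in tumor mouse 1. edgeR 4.0.16 (R 4.3.3; quasi-likelihood test, default low-count filter, TMM, tissue as the only term, Benjamini-Hochberg at 0.05) tested 3674 of 16032 genes, holding 93.9% of UMIs. The script was tested on simulated data; the simulated dispersion was set to that of these data, and the pass mark lowered, after a first version with a higher dispersion missed its mark. Shares of thinned cells are exact expectations over all draws at 441 UMIs, the 25th percentile in tumor. Shares were compared by exact permutation tests. Intervals cover counting error only.

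The members and gene lists were chosen with earlier results of these data known. The genes named are all members and, in each list, up to 3 called genes with the largest fold in each direction. Sequence motifs, the windows printed, pairs of members and members per cell were chosen after seeing the data. Alternatives were DESeq2 1.42.0, other scalings, filters, hashtag rules (HTODemux of Seurat 5.3.0), cell limits, a replicate block and each sum left out. The labels do not say that a hashtag number marks the same mouse in both libraries. The 3′ UTR sequence of 1 member is not reported here.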

Additional observations from a re-analysis of the deposited data

How the results depend on the processing

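Over 19 alternatives, Zfp36 kept its call and direction in all, Dusp2, Zc3h12a and Tnfaip3 in the 18 that could test them, Dusp1 and Btg2 in 18 of 19, Tnfaip2 in 17 and Btg1 in 10. The cause of the changes below was not tested. With at least 500 genes per cell, which left 7 members and 36 pathway genes to test, 1 member was higher, 16 pathway genes were higher and 5 lower. There Dusp1 was at -0.19 and Zfp36l1 at -0.67 on the log2 scale, and Tnfaip2 (0.63, edgeR adjusted p = 0.0707), Btg1 (0.47, 0.158) and Btg2 (0.61, 0.0664) lost their calls. The share of cells with Dusp1 then differed by -2.04 percentage points and that with Zfp36l2 by 3.37. Without the low-count filter Zfp36l1 was at -0.20, Tnfaip2 at 0.49 and Btg1 at 0.15, neither called (edgeR adjusted p = 0.0756 and 0.581), with the median gene shifted by -0.24. Upper-quartile scaling, chosen after seeing the data, shifted it by -0.13 and gave -0.090 for Zfp36l1 and 0.31 for Btg1. Thinned cells gave -0.12 and 0.32, at least 300 genes -0.22 and 0.28, and DESeq2 gave 0.37 for Btg1, which was called in none of these 4. Without cells holding markers of other types Zfp36l2 reached 0.61 and was called, with a share difference of 0.40. Leaving out each mouse in turn gave -0.16 to 0.18 for Zfp36l1 and 0.23 to 0.50 for Btg1, and share differences of -1.11 to 0.981 for Zfp36l1 and -0.863 to 0.252 for Zfp36l2. The share difference of Zfp36l1 was -0.81 without thinning, -0.070 with HTODemux and -0.15 with at least 300 genes, that of Zfp36l2 0.39 with at least 300 genes, and that of Btg1 -0.44 without thinning. Same-numbered sums correlated at 0.02, 0.01 and -0.02, and differently numbered ones at -0.05 to 0.05. With counts this sparse such values neither show nor exclude pairing by hashtag number. With the hashtag number as a replicate block 8 members were higher, 36 pathway genes higher and 10 lower, and no member's call changed. Dusp2 and Tnfaip3 are limited by 3 and 7 UMIs in blood.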

Other observations

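The UMIs of the 10 members together made up 6375 CPM in tumor cells (95% Poisson interval 6170 to 6585) and 3315 CPM in blood cells (3211 to 3422). Btg1 supplied 22.5% ± 2.17 of the members' UMIs in tumor and 32.1% ± 0.993 in blood (SD, n = 3 mice), without overlap of the mice and with no test, while Tnfaip3 supplied 6.29% ± 0.637 and 0.179% ± 0.0977. The coefficient of variation of the Dusp1 values was 3.71% in tumor, from 63, 334 and 109 UMIs. In blood it was 34.0%, from 194, 100 and 179 UMIs. Counting error was not taken out of these values, so they are not read as a difference in variation among mice. Tumor barcodes with at least 100 but under 200 genes, below the limit used for cells, held Dusp1 at 997 CPM (862 to 1148). Assigned tumor cells held 883 CPM (808 to 964), with overlapping intervals, and those with at least 500 genes held 370 CPM (271 to 494). In blood the same classes stood at 401, 412 and 398 CPM.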
